A study of Rattus norvegicus with 2 samples.

Results

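The 5 long non-coding RNAs (lncRNAs) described here are NONRATT033931.1, NONRATT010872.2, NONRATT028802.2, NONRATT008258.2 and NONRATT031966.1, out of 18361 lncRNAs with at least 1 read in either library. They were picked by identifier, the first 4 for their abundance and NONRATT031966.1 for the distance between its levels in the libraries. Read numbers, levels and ratios therefore chose them, and those values are given as a description with no test. Both libraries came from the myocardium of spontaneously hypertensive rats, an inbred strain with inherited high blood pressure. The KXH group received the high dose (9.6 g/kg) of the Jiangya Kangxian formula, a herbal preparation, into the stomach, and the control group received distilled water, each for 12 weeks. There was 1 library per group, and the labels do not state age, sex or any pooling of animals. Both groups carry the hypertensive background, and no group with normal blood pressure was analysed here.

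A lncRNA is a transcript of considerable length that is not translated into a known protein. Some lncRNAs stay in the nucleus and take part in splicing and chromatin organisation, others act in the cytoplasm, and many have no known role. In the heart several have been studied for their part in hypertrophy and in the switch between contractile protein isoforms. The identifiers belong to the NONCODE catalogue of non-coding transcripts, in which a locus can be split into several short entries. The tables pair these identifiers with positions but with no gene name, so no role is given for any of the 5, and their sequences are not shown here. Whether their spans overlap exons of protein-coding genes was not tested.

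The lncRNA table held 2.93 M reads with KXH and 3.18 M with water (M, 1000000), which was 17.2% and 17.4% of all reads listed. Levels are in RPKM, reads per kilobase of listed length per 1000000 reads of the lncRNA table. All 9 cardiomyocyte markers examined were listed in both libraries, between 598 and 10080 RPKM on the protein-coding scale with KXH and between 607 and 8890 RPKM with water, and the 2 liver markers reached at most 1.36 RPKM. The 9 cardiomyocyte markers summed to 37136 RPKM with KXH and 34806 with water, with 5 of 9 higher with KXH. Sums of the other marker lists differed between the libraries, some by little. The 4 skeletal muscle markers listed, of 5 examined, summed to 1146 and 1185 RPKM. None of those 4 was higher with KXH, and 1144 and 1183 RPKM came from a single gene. The lowest of the 4 stood at 0.012 and 0.022 RPKM. Examined were Myh1, Myh2, Tnnt3, Ckm and the unlisted Myh4, and their sum is not read as skeletal muscle tissue. The 5 erythroid markers summed to 2271 RPKM with KXH and 3340 with water, all 5 being lower with KXH, and the 3 endothelial markers summed to 222 and 251 RPKM, all 3 lower. The 3 macrophage markers summed to 28.8 and 34.5 RPKM, all 3 lower. The 4 fibroblast markers summed to 775 and 698 RPKM, with 3 of 4 higher with KXH. The 4 atrial markers summed to 874 and 560 RPKM, also with 3 of 4 higher, and 854 and 547 RPKM of these sums came from a single gene, Nppa. The part of these differences in the lncRNA values below was not tested, and in whole tissue fewer cells of a type and less RNA per cell cannot be told apart.

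Together the 5 lncRNAs took 413336 reads with KXH and 427411 with water. That was 14.1% of the lncRNA reads in the KXH library (95% exact Clopper-Pearson interval 14.07 to 14.15) and 13.5% in the water library (13.42 to 13.49). Without NONRATT031966.1 the other 4 took 12.9% and 13.3%, so the order of the libraries in the summed share turned with that single transcript. The lncRNA reads were concentrated, since 205 lncRNAs held 50% of them with KXH and 219 did with water. Intervals here and below cover counting error only. Such reads carry no molecular identifiers and are not independent molecules, and no interval contains the variation between animals.

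By reads, NONRATT033931.1 ranked first in both libraries and NONRATT010872.2 second. Per length the order was another. NONRATT028802.2 had the highest RPKM of all lncRNAs in both libraries, whereas NONRATT033931.1 ranked 5 in each. Which lncRNAs are the most abundant therefore depends on the measure, and the 5 do not hold all of them. NONRATT033930.1, a neighbour of NONRATT033931.1 that is not among the 5, ranked 3 by summed reads and stood at 30129 RPKM with KXH (rank 4) and 34699 RPKM with water (rank 2). The next lncRNA outside the 5 by summed reads was NONRATT003466.2, also on chromosome 1, at 22301 and 24439 RPKM.

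**Figure D1:**
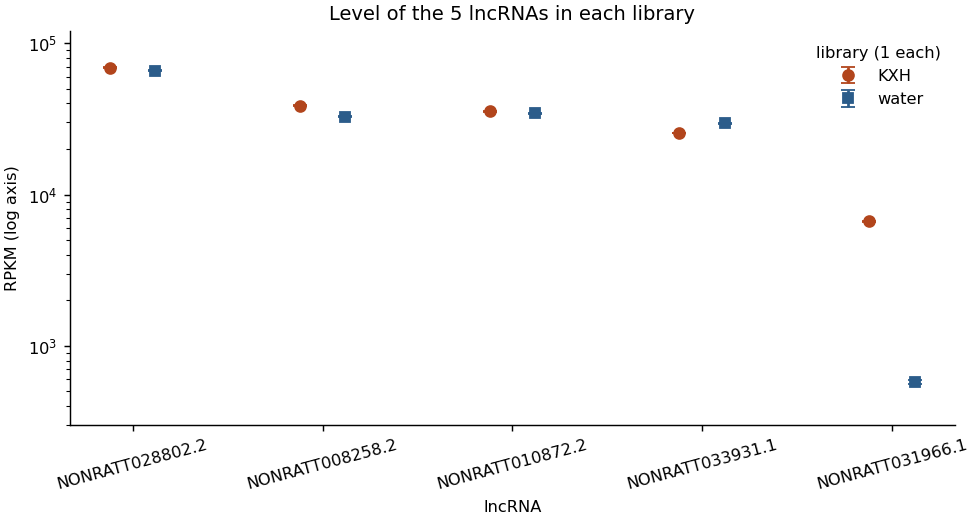
Level of each of the 5 lncRNAs in RPKM (log axis) in the KXH library (circles) and the water library (squares), with 95% exact Poisson intervals that are mostly narrower than the symbols. The 4 abundant lncRNAs lie between 25447 and 68955 RPKM in both libraries, while NONRATT031966.1 is at 6646 RPKM with KXH and 576 with water.

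NONRATT031966.1 is listed at chr14:46643222-46645093, as 1 unbroken block whose length of 1872 bases equals its span. The KXH library held 36444 reads of it and the water library 3424. Its level was 6646 RPKM with KXH (95% exact Poisson interval 6578 to 6715) and 576 RPKM with water (557 to 595). The transcript was thus among the abundant lncRNAs with KXH, at rank 9 by reads and 19 by RPKM, and further down with water, at rank 82 and 202. The RPKM ratio was 11.5 (95% exact interval 11.1 to 12.0), a log2 ratio of 3.53 with 0.1 RPKM added to each level. It took 1.24% of the lncRNA reads with KXH and 0.108% with water.

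Nearly all of the transcript was covered in both libraries. Reads reached 99.57% of its bases with KXH and 98.13% with water, by the deposited coverage. The 398 lncRNAs with 1000 to 10000 reads in the water library had a median coverage of 99.11%. The 25 with at least 10000 reads in the KXH library had a median of 99.57%.

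Of the 899 lncRNAs with at least 1000 reads in sum, 1 was at least 2-fold higher with KXH, which is NONRATT031966.1 itself (0.111% of those compared), and none was at least 2-fold lower (0%). Only 8 of the 899 were more than 1.5-fold apart. Over these 899 the central 90% of log2 ratios ran from -0.24 to 0.27 around a median of -0.0016. The next highest were NONRATT017137.2 on chromosome 20, with 1866 and 1230 reads (1.65-fold higher, 1.53 to 1.77), and NONRATT014392.2 on chromosome 19 (1.53-fold, 1.44 to 1.64). The next lowest were NONRATT025875.2 (1.71-fold lower) and NONRATT007529.2 (1.67-fold lower). These 4 were named after their values were seen. NONRATT031966.1 was chosen for this distance, so its place in the ranking is no independent evidence.

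Among the 5870 lncRNAs with at least 100 reads in sum, the level with KXH was 2-fold or more higher for 9 (0.153%) and 2-fold or more lower for 15 (0.256%). Just outside the choice of members lay NONRATT028522.2, at 43.5 RPKM with KXH and 10.5 with water (4.14-fold higher, 2.56 to 6.96; 84 and 22 reads). NONRATT022258.2 followed at 29.3 and 9.75 RPKM (3.01-fold higher, 2.02 to 4.56; 97 and 35 reads). On the other side were NONRATT033384.1 (4.57-fold lower; 23 and 114 reads) and NONRATT017141.2 on chromosome 20 (3.14-fold lower; 193 and 657 reads). All 4 rested on fewer than 1000 reads. Over all 17071 lncRNAs whose mean level reached 0.5 RPKM, 8.18% were higher by 2-fold or more and 10.9% lower by 2-fold or more. Of these, 393 had a higher log2 ratio than NONRATT031966.1, and the most reads that any of those 393 had in sum was 17. NONRATT031966.1 differed from all of these in the number of reads behind its ratio.

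**Figure D2:**
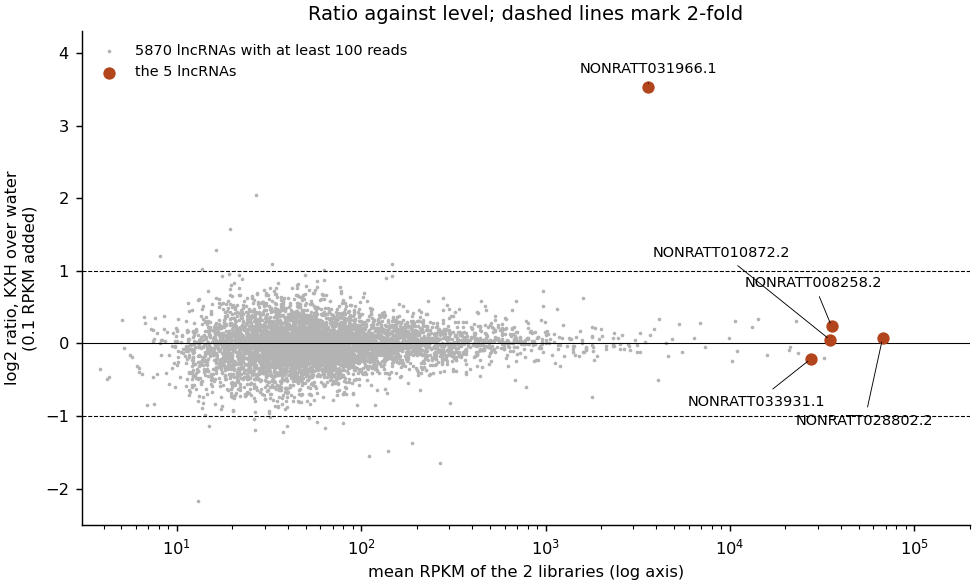
Log2 ratio of KXH over water (0.1 RPKM added) against the mean RPKM of the libraries (log axis) for the 5870 lncRNAs with at least 100 reads in sum (grey points) and the 5 lncRNAs (large points). NONRATT031966.1 lies at 3.53, above the next highest at 2.04, and the other 4 lie between -0.21 and 0.23.

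No other lncRNA was listed within 100 kb of NONRATT031966.1. How many of all lncRNAs lack such a neighbour was not counted, so its position is not called unusual. The nearest on the side of lower coordinates was NONRATT009375.2, 355 kb away, with 51 and 43 reads (ratio 1.29, 0.840 to 1.98). On the other side it was NONRATT009920.2, 554 kb away, with 73 and 98 reads (ratio 0.808, 0.588 to 1.11). Both intervals include 1, so a difference of these rows was not detectable at their depth. Neither had a ratio near the 11.5 of NONRATT031966.1, and other rows within 500 kb were not compared with it. The lncRNAs most like it in mean level and ratio were NONRATT014392.2 and NONRATT010821.2, at Euclidean distances of 3.14 and 3.20 in log2 mean RPKM and log2 ratio. Likeness here rests on 2 libraries. Among lncRNAs not chosen as members, the nearest to each of the other 4 was NONRATT033930.1, at most 1.09 away. Members were not compared with each other for likeness.

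The excess of 33020 reads in the KXH library enters the total that scales every other lncRNA. Leaving NONRATT031966.1 out of both totals would add 0.017 to each other log2 ratio. The log2 ratio smallest in size, whatever its sign, among the 5 was that of NONRATT010872.2, at 0.049.

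NONRATT033931.1 is listed at chr1:221154561-221156910, again as 1 block of 2350 bases. It had 175168 reads with KXH and 220433 with water, the most of any lncRNA in each library. It took 5.98% of the lncRNA reads with KXH (5.95 to 6.01) and 6.94% with water (6.91 to 6.97). Its level was 25447 RPKM with KXH and 29525 with water, which is 1.16-fold lower with KXH (1.15 to 1.17). The deposited coverage was 100.09% in both libraries, the only lncRNA value above 100, and the sources used here do not say how that figure arose.

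Several other abundant lncRNAs are listed beside NONRATT033931.1. Of the 18 other lncRNAs listed within 100 kb, 6 lay within 10 kb. Together with NONRATT033931.1 these 7 entries span 6966 bases and took 12.9% of all lncRNA reads with KXH and 14.5% with water. Their summed ratio was 1.13-fold lower with KXH (1.12 to 1.13). Reads on overlapping entries may have been counted in more than one of them. NONRATT003469.2 and NONRATT003470.2 each share 69 bases of span with NONRATT033931.1. NONRATT003469.2 also lies within the span of NONRATT003470.2, and the spans of NONRATT033930.1 and NONRATT003466.2 overlap. The 7 entries are therefore not separate observations.

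All 6 close neighbours were lower with KXH, each with a counting interval below 1. Under trimmed-mean scaling, added after the data were seen, 5 of the 6 kept an interval below 1 and NONRATT003468.2 did not (ratio 0.997, 0.984 to 1.01). NONRATT033930.1, 1.28 kb away, was 1.15-fold lower (1.14 to 1.16) from 62572 and 78159 reads, and its interval overlaps that of NONRATT033931.1. NONRATT003466.2 was 1.10-fold lower (1.08 to 1.11). NONRATT003468.2, on the other side, had 42584 and 48030 reads and was only 1.04-fold lower (1.03 to 1.05). So the entries shared a direction but not a size. Of the 6, 4 had intervals wholly closer to 1 than that of NONRATT033931.1, and 2 overlapped it. By log2 ratio, 835 of the 899 lncRNAs with at least 1000 reads lay above NONRATT033931.1, so nothing is read from that count. The share of all lncRNAs with an interval wholly closer to 1 was not computed.

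Over the whole 100 kb the direction was less uniform. Of the 13 neighbours within 100 kb with at least 100 reads, 11 were lower. An interval below 1 was found for 10 of the 13, and none had one above 1. Of all 18, 1 had an interval above 1, NONRATT001458.2 with 23 and 11 reads (ratio 2.27, 1.06 to 5.15). It was named after its value was seen. Those 13 include the 6 close ones, all of them lower, and the 2 higher entries lay beyond 10 kb. Over all lncRNAs with at least 100 reads, 11.5% had an interval below 1, and over those with at least 1000 reads 18.9% did. The median log2 ratio of the 13 was -0.13, against -0.021 over all 5870. For the 6 close ones alone it was -0.14, and no median was computed for those beyond 10 kb. NONRATT003472.2, 42.9 kb away and named after its value was seen, was lower by more than NONRATT033931.1, at 1.31-fold (1.19 to 1.44) from 737 and 1047 reads. The most deeply counted of the distant ones, NONRATT003473.2, also named after its value was seen, had 2326 RPKM with KXH and 2375 with water (ratio 0.979, 0.962 to 0.997). Its ratio passes to the other side of 1 under scaling by the median of ratios or the trimmed mean, which add 0.035 and 0.052 to log2 ratios.

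**Figure D3:**
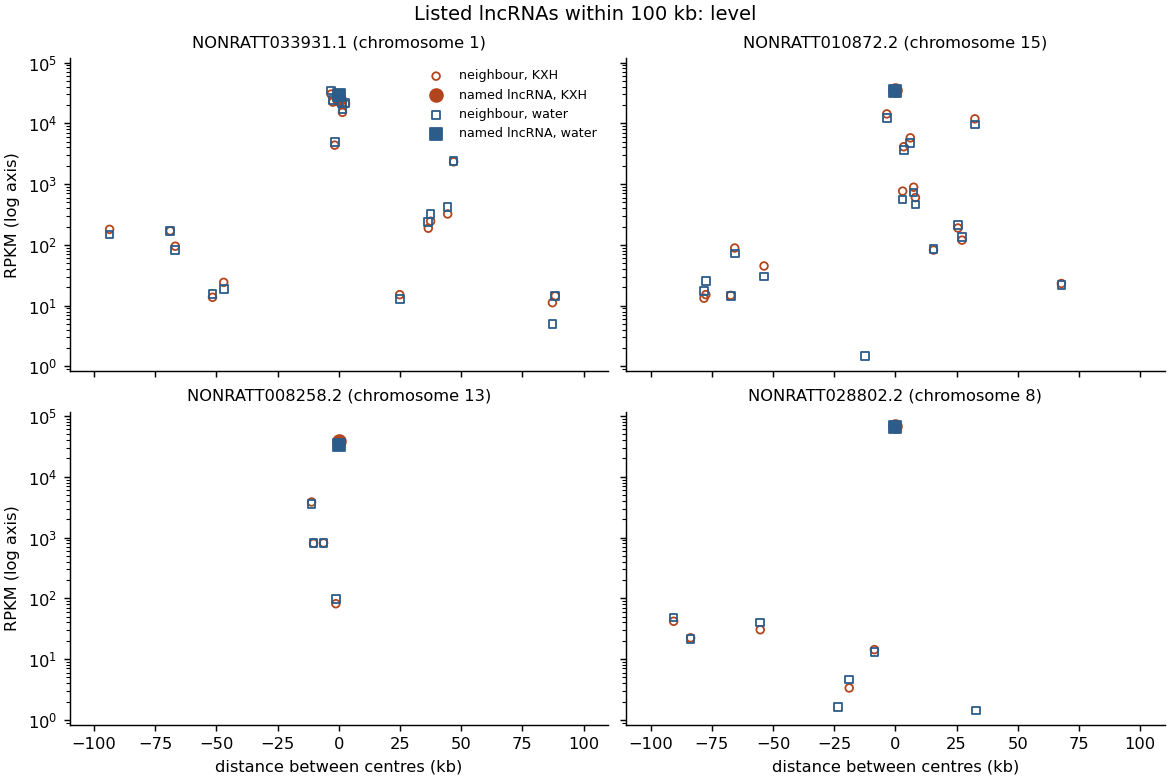
Level in RPKM (log axis) of the lncRNAs listed within 100 kb of 4 of the 5 lncRNAs, against the distance between centres in kb, in the KXH library (circles) and the water library (squares); values of 0 are not drawn, and NONRATT031966.1 had no neighbour. The levels around NONRATT033931.1 reach 34699 RPKM, whereas none around NONRATT028802.2 exceeds 48.5 RPKM.

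NONRATT010872.2 is listed at chr15:33611147-33612834. Its listed length of 755 bases is 44.7% of its span of 1688, so it has at least 1 intron in the catalogue. It had 78724 reads with KXH and 82555 with water, a share of 2.69% (2.67 to 2.71) and 2.60% (2.58 to 2.62). At 35597 and 34417 RPKM it was 1.03-fold higher with KXH (1.02 to 1.04), the smallest difference of the 5. Its coverage was 99.87% in both libraries.

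Most of its close neighbours were higher by more. Of the 17 lncRNAs listed within 100 kb, 11 were higher with KXH and 6 lower. Within 10 kb lay 7, and 6 of those had a counting interval wholly above that of NONRATT010872.2. By log2 ratio alone, 328 of the 899 lncRNAs with at least 1000 reads lay above NONRATT010872.2, as did 2223 of the 5870 with at least 100. The share of all lncRNAs with an interval wholly above was not computed, so nothing is read from the count of 6. NONRATT010871.2 shares 208 bases of span with it and stood at 14263 and 12248 RPKM, 1.16-fold higher (1.15 to 1.18) from 40276 and 37510 reads. NONRATT010874.2, 1.74 kb away, was at 4114 and 3598 RPKM, 1.14-fold higher (1.12 to 1.17). NONRATT010420.2, 29.4 kb away, was at 11827 and 9520 RPKM, 1.24-fold higher (1.21 to 1.27). These 3 entries and NONRATT010872.2 all had ratios above 1, with NONRATT010872.2 closest to 1.

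Among the 12 neighbours with at least 100 reads, 8 had an interval above 1 and none below 1. Of all 17, 1 had an interval below 1, NONRATT010868.2 with 31 and 56 reads (ratio 0.600, 0.374 to 0.947). NONRATT010419.2, with 397 and 482 reads, had a ratio of 0.893 (0.780 to 1.02), wholly below the interval of NONRATT010872.2. Both were named after their values were seen. The share with an interval above 1 was 8.59% of all lncRNAs with at least 100 reads and 19.9% of those with at least 1000. The median log2 ratio of the 12 was 0.28. The neighbours were lower in level: with KXH NONRATT010872.2 was 2.50 times as high per length as NONRATT010871.2 and 8.65 times as high as NONRATT010874.2. The 8 entries within 10 kb, NONRATT010872.2 included, took 5.07% of the lncRNA reads with KXH and 4.64% with water. Some of them overlap in span, with NONRATT010415.2 inside NONRATT010874.2. NONRATT010417.2, NONRATT010418.2 and NONRATT010876.2 lie within the span of NONRATT010416.2. The 8 entries are therefore not separate observations.

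NONRATT008258.2 is listed at chr13:52679077-52680986, where its length of 497 bases is 26.0% of a span of 1910. It had 56143 reads with KXH and 51779 with water, although the KXH library was the smaller. Its level was 38565 RPKM with KXH and 32793 with water, 1.18-fold higher (1.16 to 1.19). It took 1.92% of the lncRNA reads with KXH (1.90 to 1.93) and 1.63% with water (1.62 to 1.64). Coverage was 99.8% and 99.4%.

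The 4 lncRNAs listed within 100 kb all lay within 10 kb on the side of lower coordinates, and none of them shared this ratio. Each had a counting interval wholly below that of NONRATT008258.2. By log2 ratio, 836 of the 899 lncRNAs with at least 1000 reads also lay below NONRATT008258.2, as did 5069 of the 5870 with at least 100. The share of all lncRNAs with an interval wholly below was not computed, so nothing is read from the count of 4. Nor are the 4 separate observations, because NONRATT008254.2 and NONRATT008256.2 lie within the span of NONRATT008252.2. NONRATT008252.2 was nearest in level, at 3842 and 3543 RPKM, and was 1.08-fold higher (1.05 to 1.11), the only 1 of the 4 with an interval above 1. NONRATT008254.2 (3146 and 3430 reads) and NONRATT008256.2 (1706 and 1867 reads) had ratios of 0.995 (0.948 to 1.04) and 0.991 (0.928 to 1.06). For these a difference was not detectable at this depth. NONRATT008257.2, named after its value was seen, shares 89 bases of span with NONRATT008258.2 but had 176 and 227 reads, so per length NONRATT008258.2 was 474 times as high with KXH and 339 times as high with water. On the side of higher coordinates the next listed lncRNA, NONRATT008259.2, lay 182 kb away with 4 reads in each library.

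**Figure D4:**
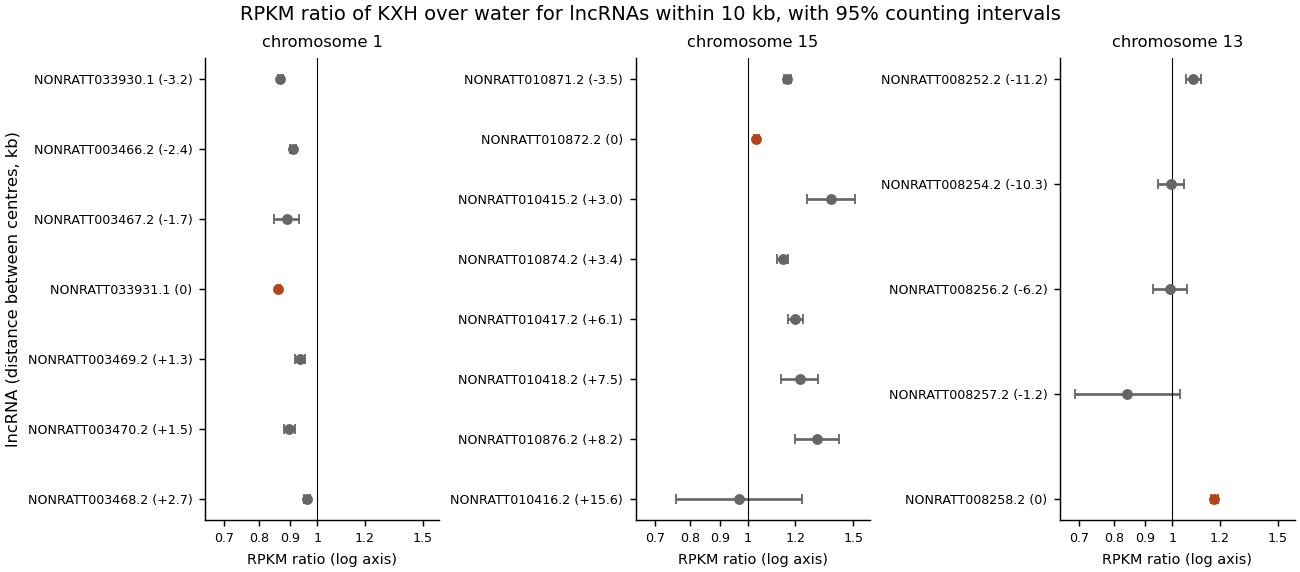
RPKM ratio of KXH over water (log axis) with 95% exact counting intervals for NONRATT033931.1, NONRATT010872.2 and NONRATT008258.2 (coloured) and the lncRNAs listed within 10 kb of each (grey), in the order of the distance between centres given in brackets in kb. On chromosome 1 all 7 ratios lie below 1, on chromosome 15 NONRATT010872.2 lies closer to 1 than 6 neighbours, and on chromosome 13 NONRATT008258.2 lies above all 4 neighbours.

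NONRATT028802.2 is listed at chr8:85480292-85480622, a single block of 331 bases and the shortest of the 5. On these few bases 66857 reads were counted with KXH and 69220 with water, 2.28% (2.27 to 2.30) and 2.18% (2.16 to 2.19) of the lncRNA reads. That gives 68955 and 65824 RPKM, the highest level of any lncRNA, and a ratio of 1.05 (1.04 to 1.06). Coverage was 96.68% with KXH and 95.47% with water, the lowest of the 5 in each library.

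Few reads were listed around it. The 7 lncRNAs listed within 100 kb had 295 reads in all with KXH and 354 with water, and none exceeded 41.9 RPKM with KXH or 48.5 with water. NONRATT028800.2, the most counted, had 106 and 133 reads (ratio 0.864, 0.663 to 1.12). NONRATT028801.2 had 112 and 117 reads (1.04, 0.794 to 1.36), and NONRATT027897.2 46 and 66 reads (0.756, 0.507 to 1.12). All 7 intervals include 1 and overlap that of NONRATT028802.2, so no difference of a neighbour, and no departure from the ratio of NONRATT028802.2, was detectable at this depth. Per length NONRATT028802.2 was 1646 times as high as NONRATT028800.2 with KXH and 1359 times with water. For NONRATT027898.2 and NONRATT027901.2, named after their values were seen, the KXH library listed no read and the water library 2 and 3, at or under a floor of 3 reads, so no ratio is given.

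The order of levels per length differed between the libraries in 1 place. With KXH it ran from NONRATT028802.2 through NONRATT008258.2 (38246 to 38885 RPKM by the exact Poisson interval), NONRATT010872.2 (35348 to 35846) and NONRATT033931.1 (25328 to 25566) to NONRATT031966.1. With water NONRATT010872.2 (34183 to 34653) stood above NONRATT008258.2 (32511 to 33077). No adjacent intervals overlap in either library. With 1 library per group the spread between animals is unknown, so none of these orders has a replicate check.

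Counted per kilobase of listed length in the same library, the 4 abundant lncRNAs reached the range of the most abundant cardiac messenger RNAs. The listed positions of NONRATT010872.2 and NONRATT008258.2 may coincide with genes of cardiac contractile proteins, and that of NONRATT033931.1 with a known nuclear lncRNA. No annotation of the tables' build was used, so this was not tested. Which class of RNA lies at the positions of NONRATT028802.2 and NONRATT031966.1 was not tested either. Reads of a messenger RNA from the same locus cannot be told apart from those of a lncRNA in these levels. With either treatment the 1 protein-coding gene above NONRATT028802.2 was Mb, which encodes the oxygen-binding protein myoglobin. Above NONRATT010872.2 and NONRATT008258.2 were 3 genes in both libraries, namely Mb, LOC102723236 and Actc1, which encodes cardiac alpha-actin. For NONRATT033931.1 the myosin light chain gene Myl3 joined these 3 in both libraries, and the troponin I gene Tnni3 joined with KXH only, which makes 5 genes with KXH and 4 with water. These genes were named after their values were seen. NONRATT031966.1 had 37 protein-coding genes above it with KXH and 548 with water.

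The counting interval of 4 of the 5 lay above 1 and that of NONRATT033931.1 below 1. With at least 1000 reads 19.9% of lncRNAs had an interval above 1 and 18.9% below 1, and nothing is read from the count over the 5 themselves because the same ratios took part in choosing them. By log2 ratio, 63 of the 899 deeply counted lncRNAs were lower than NONRATT033931.1 and 62 were higher than NONRATT008258.2. NONRATT010872.2 and NONRATT028802.2 lay well inside the distribution, with 328 and 283 above them.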

How the data were processed

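Myocardial RNA of 2 libraries, 1 per group, was extracted with Trizol and made into libraries with an Illumina TruSeq RNA kit, per the labels' protocols. The deposited tables (4, a lncRNA and a protein-coding table per library) give a whole count of reads per entry, described in the heading as unique, a length, a percent coverage and an RPKM. The deposited RPKM equals the count per kilobase per 1000000 reads, with each table scaled to its own sum (relative difference under 1e-09), so the lncRNA and protein-coding RPKM scales differ. Bowtie 0.12.2 and rn6 are named, with no role, in the submitters' processing notes. The tables name no build, and no label or header gives the counting program, the use of strand or filters. If strand was not used, overlapping antisense transcripts cannot be told apart.

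Entries missing from a table entered with 0 reads. Log2 ratios used RPKM plus 0.1, while printed folds are RPKM ratios with nothing added. Intervals on ratios and shares are 95% Clopper-Pearson, and on levels exact Poisson. With 1 library per group no test was possible. Neighbours are entries on the same chromosome within 100 kb of a member's span. Named were the 5 members and 3 neighbours each with the most reads. Also named were the next 2 by reads and by ratio in each direction (at least 100 reads). The 2 most alike per member were taken from lncRNAs outside the 5 with at least 100 reads. The members and lists were chosen with earlier results of these data known. Alternatives were other pseudocounts, scalings, filters, thresholds, windows and denominators. The scripts were tested on simulated data (matplotlib 3.10.9, scipy 1.17.1, pandas 2.3.3, numpy 2.4.6, Python 3.11.15).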

Additional observations from a re-analysis of the deposited data

How the results depend on the processing

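With 1 library per group no alternative adds a replicate, no interval holds animal variation, and depth limits the neighbours with few reads. No paired analysis was possible because each group has a single library. All 5 members kept the direction of their log2 ratio under all 6 pseudocounts and scalings, 30 values in all, of which 11 left the counting interval. Trimmed-mean scaling gave 3.58 for NONRATT031966.1, -0.16 for NONRATT033931.1, 0.12 for NONRATT028802.2, 0.10 for NONRATT010872.2 and 0.29 for NONRATT008258.2. The median of ratios gave -0.18 for NONRATT033931.1, 0.10 for NONRATT028802.2, 0.083 for NONRATT010872.2 and 0.27 for NONRATT008258.2. For NONRATT033931.1, leaving the members out of the totals gave -0.20 and the protein-coding totals -0.23.

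Of the 17071 lncRNAs, the difference reached 2-fold for 1396 higher and 1865 lower with KXH. With at least 100 reads these counts were 9 and 15, from fewer lncRNAs compared, and at 1.5-fold 2403 and 3318. Against the reads of both tables together, which are more by construction, the shares with KXH and with water were 0.215% and 0.0187% for NONRATT031966.1, 1.03% and 1.21% for NONRATT033931.1, 0.394% and 0.379% for NONRATT028802.2, 0.463% and 0.452% for NONRATT010872.2, and 0.331% and 0.283% for NONRATT008258.2.

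Within 10 kb there were 6, 7 and 1 neighbours of NONRATT033931.1, NONRATT010872.2 and NONRATT028802.2. Within 500 kb there were 51, 39 and 11, with 20 for NONRATT008258.2 and 3 for NONRATT031966.1. With at least 100 reads NONRATT028802.2 had 3. The median log2 ratio of neighbours turned sign for NONRATT028802.2 within 10 kb (0.12 from a single neighbour, against -0.40) and for NONRATT010872.2 within 500 kb (-0.048 against 0.19), where other entries enter.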
